A study of Mus musculus with 4 samples.

Results

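The 7 long chromosome blocks with lower chromatin accessibility in lymph node fibroblasts of Notch2_cKO mice were examined region by region. Together they span 20.37 Mb of mouse chromosomes 1 (2 blocks), 4, 5, 12 (2 blocks) and 17, and they hold 397 of the 110121 accessible regions measured. A region is a run of counting windows of 300 bp that lie up to 100 bp apart, and it is represented by its window with the most counts over all libraries. The blocks had been picked because neighbouring regions in them were lower in the Notch2_cKO libraries than in the controls. The difference between these groups inside the blocks is therefore given as a description, without a test of the blocks and without p-values.

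The assay was ATAC-seq: a transposase cuts accessible DNA and adds sequencing adapters, so that counts are high where chromatin is open. The cells were fibroblastic reticular cells (FRCs), the fibroblasts that form the scaffold of lymph nodes, from brachial, axillary and inguinal nodes of female mice aged 12 weeks on a C57BL/6 background. The question addressed by the design is how the chromatin of these cells differs when the receptor Notch2 is deleted in them. Notch2_cKO mice carried Ccl19-Cre together with floxed Notch2 alleles (Ccl19-Cre x Notch2 fl/fl), and control mice were littermates with the same floxed alleles and no Cre (Notch2 fl/fl). Each group had 2 libraries, each a pool of 6 mice from which 50000 cells with high BP3 and with podoplanin, but without CD31 or CD45, were sorted. The deletion is limited to cells in which Ccl19-Cre has been active, and pooling hides differences between single mice. In such bulk libraries, fewer cells with an open site and a less open site in every cell cannot be told apart.

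Notch receptors release their intracellular domain after contact with a ligand on a neighbouring cell, and this domain joins the DNA-binding protein Rbpj at target genes. Long chromosome stretches with few genes are known in mammals as gene deserts. Some deserts beside developmental regulators hold distant regulatory elements, and others surround large genes of the nervous system. Genes of both kinds lie in the blocks: Id2 and Mycn encode transcriptional regulators of growth and differentiation, while Cntnap5a and Brinp3 belong to families of neuronal proteins. Whether block regions regulate these genes was not tested.

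Promoter sequences are shown for 5 genes of the blocks, because they lie under regions with log2 changes from -0.39 to -0.07 (the first 4) and of -1.04 (the last), which are described further on. The first 4 lie under regions of 19.9 CPM or more in every library, and the last lies under the less accessible region at the start of Cntnap5a. Each runs from 250 bases before to 50 bases after a transcript start in RefSeq's annotation of build GRCm38.p6, on the minus strand, 5′ to 3′. Capitals mark matches on either strand to TGGGAA (the core letters bound by Rbpj), TGANTCA (AP-1), GGGCGG (GC box), GGAATG (Tead core) or the letters CCAAT.
Id2, chr12:25096043-25096342: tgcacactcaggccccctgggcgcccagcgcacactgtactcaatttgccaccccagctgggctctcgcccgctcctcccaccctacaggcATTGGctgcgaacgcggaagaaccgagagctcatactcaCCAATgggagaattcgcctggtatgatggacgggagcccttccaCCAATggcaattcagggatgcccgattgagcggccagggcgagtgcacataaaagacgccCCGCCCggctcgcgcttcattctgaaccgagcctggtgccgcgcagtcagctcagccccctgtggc
Dsel, chr1:111864869-111865168: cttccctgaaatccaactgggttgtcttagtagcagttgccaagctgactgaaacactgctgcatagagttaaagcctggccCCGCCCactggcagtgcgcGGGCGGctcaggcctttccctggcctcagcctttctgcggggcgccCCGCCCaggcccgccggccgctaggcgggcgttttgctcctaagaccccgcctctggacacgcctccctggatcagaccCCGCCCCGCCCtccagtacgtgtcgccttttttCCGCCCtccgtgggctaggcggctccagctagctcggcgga
Arap2, chr5:62766128-62766427: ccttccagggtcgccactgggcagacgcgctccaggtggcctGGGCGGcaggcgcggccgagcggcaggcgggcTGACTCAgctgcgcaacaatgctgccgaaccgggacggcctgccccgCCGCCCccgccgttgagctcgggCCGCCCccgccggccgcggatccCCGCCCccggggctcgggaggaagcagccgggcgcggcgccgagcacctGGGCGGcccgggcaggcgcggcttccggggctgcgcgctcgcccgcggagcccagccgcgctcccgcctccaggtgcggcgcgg
Ddx1, chr12:13249125-13249424: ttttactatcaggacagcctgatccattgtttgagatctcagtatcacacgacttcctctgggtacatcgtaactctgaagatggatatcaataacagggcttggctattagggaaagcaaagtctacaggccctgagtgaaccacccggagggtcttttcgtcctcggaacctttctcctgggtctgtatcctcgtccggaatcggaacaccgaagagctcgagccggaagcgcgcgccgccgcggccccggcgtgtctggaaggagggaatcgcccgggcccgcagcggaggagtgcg
LOC108167704, chr1:115684605-115684904: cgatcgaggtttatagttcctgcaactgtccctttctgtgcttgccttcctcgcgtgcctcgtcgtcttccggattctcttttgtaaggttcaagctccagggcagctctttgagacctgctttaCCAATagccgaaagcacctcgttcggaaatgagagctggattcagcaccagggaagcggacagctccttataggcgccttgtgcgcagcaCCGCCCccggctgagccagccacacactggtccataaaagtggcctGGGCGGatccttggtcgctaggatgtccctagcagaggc

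The Id2 promoter held 1 GC box and 3 CCAAT boxes among 21 CpG pairs, the Dsel promoter 6 GC boxes, 1 base of which is shared by neighbouring matches, among 23 CpG pairs, and the Arap2 promoter 5 GC boxes and 1 AP-1 match among 47 CpG pairs. The Ddx1 promoter held 24 CpG pairs and no match to these letters. The LOC108167704 promoter covers the annotated start of Cntnap5a (position 115684737) and held 2 GC boxes, 1 CCAAT box and 17 CpG pairs. All 5 lay above the median of 7 CpG pairs over the 32851 promoters of the table. Over all those promoters, TGGGAA occurred in 25.6%, TGANTCA in 7.81%, GGGCGG in 35.7%, GGAATG in 14.7% and CCAAT in 37.4%. Of 42 genes with a promoter inside a block, 11 had one under a measured region, and none of these promoters held TGGGAA. A match describes letters and is not a binding site, and its absence says only that the letters are not in these windows.

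The libraries differed in depth, with best-window totals of 30265230 and 12342835 counts in Notch2_cKO libraries 1 and 2, against 23633406 and 25744540 in control libraries 1 and 2. In the blocks the median region had 52 and 25 counts in the Notch2_cKO libraries, against 66 and 71 in the controls, and no region stood at 0 in any library. At Notch2 itself, the targeted gene, the region at its start had 55.2 and 46.2 CPM in Notch2_cKO, against 55.3 and 57.5 CPM in control (counts scaled to library size and adjusted by loess on level, used for all levels here). This region does not show whether the floxed part was removed. All pools are labelled female, yet 7 regions at Y-linked genes had 0 and 0 counts in Notch2_cKO, against 2 and 784 counts in control 1 and control 2, so that control 2 goes against its label. Summed levels at ends of reticular fibroblast marker genes were 266 and 267 CPM in Notch2_cKO, against 267 and 272 CPM in control, with a region at 11 of 14 genes. Blood endothelial markers had a region at 2 of 8 genes, with 33.0 and 34.3 CPM in Notch2_cKO, against 25.3 and 24.3 CPM in control, and leukocyte markers at 2 of 10 genes, with 22.1 and 19.8 CPM against 18.6 and 18.2 CPM. Lymphatic endothelial markers had 28.6 and 28.6 CPM in Notch2_cKO, against 28.2 and 25.65 CPM in control, at 2 of 7 genes. Mural cell markers had 148 and 161 CPM against 160 and 155 CPM, at 6 of 7 genes. Glial markers had 28.7 and 31.15 CPM against 29.7 and 29.3 CPM, at 2 of 5 genes. The share of counts at ends of protein-coding genes was 40.1% and 37.7% in Notch2_cKO, against 41.4% and 41.5% in control. The part of these differences in the changes within the blocks was not tested.

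Regions of the blocks were less accessible in Notch2_cKO by a median of 0.56 on the log2 scale (log2 -0.56, quartiles -0.99 and -0.20), with a range from -2.77 to 1.46. The median over all 110121 regions was 0.01. The median region of the blocks had 1.71 and 1.92 CPM in Notch2_cKO, against 2.87 and 2.84 CPM in control. Both Notch2_cKO libraries thus lay below both controls at this median. Of the 397 regions, 337 had a log2 change below zero and 96 were at least 2-fold lower. edgeR's quasi-likelihood test over all regions, with Benjamini-Hochberg adjustment, called 167 lower, 9 higher and 221 neither, where 11.3% of all regions tested were called lower and 12.4% higher. Both Notch2_cKO libraries lay below both controls at 273 regions (29.8% of all regions did so) and above both at 29 (30% of all), and the groups overlapped at 95. Since the blocks were picked on this contrast, nothing is read from these shares. Without control 2, 128 were called lower and 5 higher (7.47% and 8.04% of all regions in that fit), the median was -0.55, and both Notch2_cKO libraries lay below control 1 at 305 regions (38.0% of all regions).

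**Figure D1:**
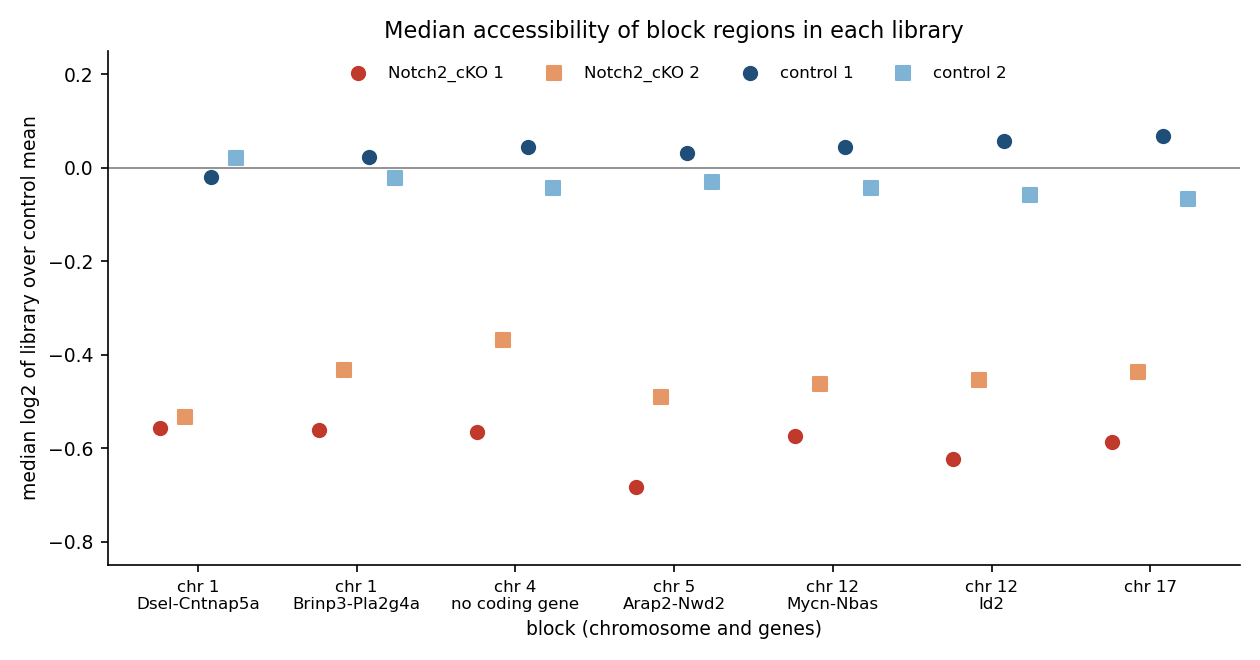
Median over the regions of each block of the log2 ratio of a library to the mean of the 2 controls (y axis, log2 of CPM + 0.1), for Notch2_cKO libraries 1 and 2 and control libraries 1 and 2. Each point is 1 library in 1 block; the 2 controls mirror each other around 0 by construction, and both Notch2_cKO libraries lie below both controls in every block, from -0.68 to -0.37.

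The 7 blocks had similar medians, from -0.67 in the Arap2 block to -0.52 in the Dsel and chromosome 17 blocks, as the plot of block medians by library shows. Notch2_cKO 1 had the lower median of the 2 Notch2_cKO libraries in each block. Over all 397 regions the 2 Notch2_cKO libraries differed from each other by a median of 0.12 (library 2 minus library 1, log2) and the 2 controls by -0.06. These are medians of signed differences and do not give the spread between replicates. Normalized levels summed over all block regions were 1943 and 2143 CPM in Notch2_cKO, against 2781 and 2661 CPM in control. The blocks took 0.195% and 0.216% of the counts in Notch2_cKO, against 0.275% and 0.265% in control.

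The blocks were poor in protein-coding genes, and most of them were poor in accessible regions. Pooled, they held 19.5 regions per Mb, against 42.0 in the rest of chromosomes 1 to 19 and X. Protein-coding genes numbered 0.834 per Mb in the blocks, against 8.28 in that rest. The chromosome 12 block with Mycn had 52.5 regions per Mb, more than the rest, and that with Id2 had 41.1, close to it. The other blocks had 12.9 to 20.2 regions per Mb. Only 24.9% of block regions lay inside a protein-coding gene, against 49.3% of regions outside the blocks. At a gene end (no more than 1000 bp from the start or the far end of a protein-coding gene) lay 3.02%, against 12.2%. More than 100000 bp from any protein-coding gene lay 56.7% of block regions, against 13.1% of the others. Of the 17 protein-coding genes that touch a block, 12 lie wholly inside, 14 contain a block region and 11 have one at an end. The blocks also hold 35 lncRNA genes and 53 pseudogenes.

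**Figure D2:**
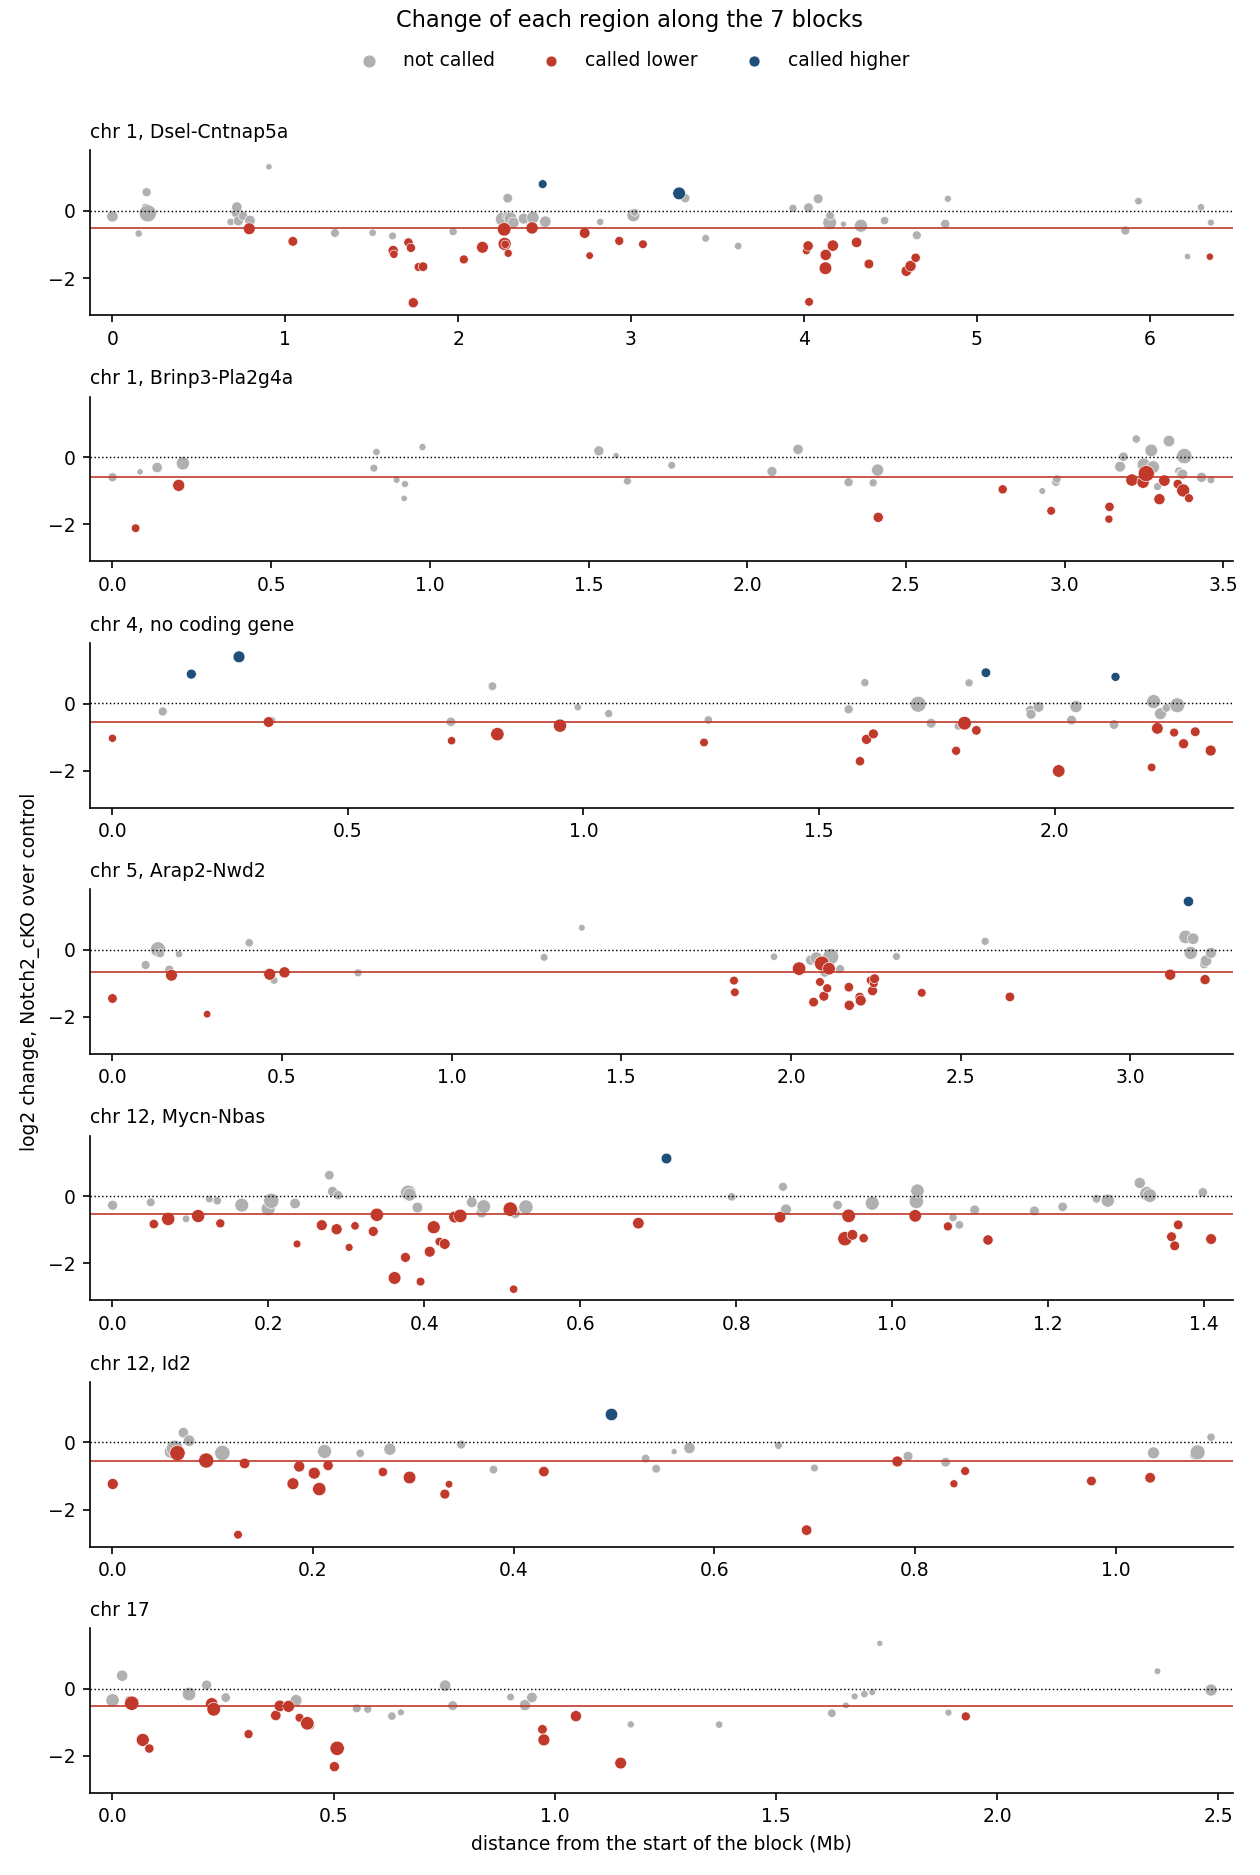
Log2 change of Notch2_cKO over control (y axis) for each of the 397 regions against its distance from the start of its block in Mb (x axis), 1 panel per block. Point size grows with the log of the mean level, colour gives the edgeR call, the dotted line is the median of all regions and the red line that of the block; lower regions occur near both ends and in between in most blocks, with 9 higher ones among them.

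The longest block, on chromosome 1 from 111660151 to 118015200, holds Dsel, Cntnap5a and B020011L13Rik and had 82 regions, of which 32 were lower, 2 higher and 48 not called, with a median of -0.52. Dsel encodes an epimerase that makes dermatan sulfate chains. The region at its start (111864601 to 111865200) was the most accessible of all 397. It had 110.0 and 113 CPM in Notch2_cKO, against 122 and 113 CPM in control (log2 -0.07, SE 0.08). The groups overlapped there, and the value depended on the scaling, being -0.37 with TMM factors. At the other end of Dsel (111857751 to 111858350) levels were 2.28 and 1.76 CPM in Notch2_cKO, against 1.38 and 1.45 CPM in control (log2 0.56, SE 0.26). Both Notch2_cKO libraries were higher there, without a call.

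Between Dsel and Cntnap5a lie 51 regions in a stretch without any protein-coding gene, and 22 of them were lower and 2 higher, with a median of -0.55. The strongest change of the block was in this stretch, 1535448 bp from Dsel (113400251 to 113400750), where levels were 0.586 and 1.08 CPM in Notch2_cKO, against 4.82 and 5.14 CPM in control (log2 -2.74, SE 0.27). The 4 libraries did not overlap, and the level in control was 6.66 times that in Notch2_cKO. The largest higher change at 1 CPM or more also lay in the stretch (114148951 to 114149400), with 1.89 and 1.98 CPM in Notch2_cKO, against 0.944 and 1.26 CPM in control (log2 0.80, SE 0.28), and its call was lost when any library was left out, with window sums and with DESeq2. The most accessible region of the stretch (113916951 to 113917600) had 18.2 and 24.4 CPM in Notch2_cKO, against 26.0 and 23.7 CPM in control (log2 -0.25), and the groups overlapped.

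Cntnap5a encodes a neuronal adhesion protein of the contactin-associated family and spans 902587 bp. Of 20 regions inside it, 9 were lower, none higher and 11 not called, with a median of -0.58 and a range from -2.71 to 0.36. The region at its start (115684401 to 115685000), which also covers the start of the lncRNA LOC108167704 shown above, had 2.15 and 1.84 CPM in Notch2_cKO, against 4.07 and 4.34 CPM in control (log2 -1.04, SE 0.21). The level in control was 2.06 times that in Notch2_cKO, with no overlap between the groups. Another region inside the gene (115784701 to 115785350), picked after its values were seen, had 4.61 and 4.91 CPM in Notch2_cKO, against 16.6 and 14.3 CPM in control (log2 -1.71). No region of the block lay inside B020011L13Rik, and the lncRNA Gm32810 between Dsel and Cntnap5a had 4 regions, none called, with a median of -0.10.

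The second block of chromosome 1, from 146584101 to 150045150, holds most of Brinp3 and all of Pla2g4a. It had 51 regions, of which 15 were lower, none higher and 36 not called, with a median of -0.60. Pla2g4a encodes cytosolic phospholipase A2, the enzyme that frees arachidonic acid from membranes for prostaglandin synthesis. Of 15 regions inside Pla2g4a, 6 were lower, none higher and 9 not called, with a median of -0.51. The most accessible one (149840801 to 149841450), 11482 bp from the nearer gene end, had 48.6 and 55.0 CPM in Notch2_cKO, against 71.2 and 73.5 CPM in control (log2 -0.49, SE 0.09). The region at the start of Pla2g4a (149960651 to 149961550) had 35.3 and 46.0 CPM in Notch2_cKO, against 40.2 and 38.4 CPM in control (log2 0.03, SE 0.12). The groups overlapped at this gene start and were apart at the region inside. The lowest count of any library was 640 inside and 549 at the start. With TMM factors the start was at -0.08.

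Brinp3, a member of a family of neural proteins induced by retinoic acid and BMP, had 6 regions, 2 of them lower and none higher, with a median of -0.52. The strongest change of the block was inside it (146657051 to 146657600), with 0.399 and 0.685 CPM in Notch2_cKO, against 1.92 and 2.37 CPM in control (log2 -2.11, SE 0.34). In the gap between Brinp3 and Pla2g4a 6 of 27 regions were lower and none higher, with a median of -0.67. The largest higher value at 1 CPM or more was 19868 bp from Pla2g4a (149809551 to 149809950), with 1.37 and 1.28 CPM in Notch2_cKO, against 0.760 and 1.07 CPM in control (log2 0.54, SE 0.32), and it was not called.

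The chromosome 4 block, from 29194701 to 31526300, contains no protein-coding gene and lies between Epha7 and Map3k7. Of its 47 regions, 20 were lower, 4 higher and 23 not called, with a median of -0.55. It therefore held 4 of the 9 higher regions of all blocks. The strongest lower region (31203151 to 31203800) had 3.00 and 4.91 CPM in Notch2_cKO, against 15.5 and 14.3 CPM in control (log2 -2.01, SE 0.19). The strongest higher region (29463251 to 29463750), 495997 bp from Epha7, had 9.82 and 9.52 CPM in Notch2_cKO, against 4.27 and 3.16 CPM in control (log2 1.39, SE 0.18). The groups did not overlap at either, so the block was not lower throughout. Its most accessible region (30904801 to 30905500), 1058342 bp from the nearest protein-coding gene, had 47.7 and 60.6 CPM in Notch2_cKO, against 54.1 and 54.8 CPM in control (log2 -0.02, SE 0.11). The next (31454751 to 31455350) had 26.2 and 33.3 CPM in Notch2_cKO, against 29.7 and 31.2 CPM in control (log2 -0.05, SE 0.12). Both Notch2_cKO libraries surrounded both controls at these 2 sites. The lncRNA 4930556G01Rik, which spans 191149 bp of the block, had 6 regions, 4 lower and none higher, with a median of -0.98.

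The chromosome 5 block, from 60649051 to 63887150, holds G6pd2, Arap2, Dthd1, Nwd2 and most of 0610040J01Rik. It had 51 regions, 26 lower, 1 higher and 24 not called, and the lowest median of the 7 blocks (-0.67). Arap2 encodes a protein that switches off the small GTPase Arf6 and binds the lipid PIP3. Of 10 regions inside Arap2, 7 were lower, none higher and 3 not called, with a median of -0.62. At its promoter (62765951 to 62766600) levels were 60.3 and 42.7 CPM in Notch2_cKO, against 56.4 and 63.7 CPM in control (log2 -0.20, SE 0.12). The groups overlapped at the promoter, with the 2 Notch2_cKO libraries further apart than the controls, and TMM factors gave -0.37.

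Dthd1, a gene for a protein with a death domain that follows Arap2, had 5 regions inside, all 5 lower, from -1.65 to -0.91. The lowest (62820701 to 62821250) had 1.50 and 1.38 CPM in Notch2_cKO, against 5.49 and 3.74 CPM in control (SE 0.25). Dthd1 had the lowest median of the genes with 5 or more regions in a block (-1.41), and 3 of the 5 calls remained with DESeq2 or without Notch2_cKO 1. Nwd2 had 1 region, which was lower (-0.74), and G6pd2, a copy of the glucose-6-phosphate dehydrogenase gene, had none. At the far side of the block 0610040J01Rik had 8 regions, 1 lower, 1 higher and 6 not called, with a median of -0.09. The higher one (63818851 to 63819250) had the largest log2 change of all block regions, with 5.20 and 4.15 CPM in Notch2_cKO, against 1.73 and 1.75 CPM in control (log2 1.46, SE 0.22). The start of the gene (63811751 to 63812650) had 17.2 and 17.1 CPM in Notch2_cKO, against 12.0 and 14.2 CPM in control (log2 0.39, SE 0.14), apart without a call. The most accessible region of the gap before Arap2 (60783051 to 60783650) had 29.2 and 37.5 CPM in Notch2_cKO, against 34.5 and 30.7 CPM in control (log2 0.02), and the groups overlapped.

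The first chromosome 12 block, from 12738751 to 14148200, was the densest, with 52.5 regions per Mb. It holds Mycn, a transcription factor of the MYC family, Ddx1, an RNA helicase, Nbas, which acts in transport between the Golgi and the endoplasmic reticulum, and part of Lratd1. Of 74 regions, 35 were lower, 1 higher and 38 not called, with a median of -0.53. The region 764 bp before the start of Mycn (12942351 to 12942850) had 32.8 and 36.0 CPM in Notch2_cKO, against 39.4 and 36.0 CPM in control (log2 -0.14, SE 0.11, and -0.24 with TMM factors). One Notch2_cKO library was almost level with control 2 there. The start of Ddx1 (13248701 to 13249450) had 22.4 and 19.9 CPM in Notch2_cKO, against 27.8 and 28.0 CPM in control (log2 -0.39, SE 0.12). It was called lower, a call that was lost without either control, with a replicate block or with DESeq2. The start of Nbas (13268851 to 13269450) had 20.0 and 20.0 CPM in Notch2_cKO, against 26.0 and 24.0 CPM in control (log2 -0.33, SE 0.12), apart without a call.

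The 27 regions between Mycn and Ddx1 included 16 lower and no higher one, with a median of -0.62. The lowest of all 397 values lay just beyond Ddx1, 4226 bp from it (13253201 to 13253600), where levels were 0.367 and 0.152 CPM in Notch2_cKO, against 2.38 and 1.77 CPM in control (log2 -2.77, SE 0.39). It rests on 11 and 2 counts in Notch2_cKO, against 56 and 43 counts in control. A better covered region, picked after its values were seen, overlaps the lncRNA Gm35350 (13100351 to 13101000) and had 3.06 and 3.35 CPM in Notch2_cKO, against 17.4 and 16.9 CPM in control (log2 -2.44). The most accessible region of the block (13117901 to 13118650) follows it closely and had 39.3 and 49.9 CPM in Notch2_cKO, against 42.8 and 39.9 CPM in control (log2 0.10, SE 0.11). The groups did not overlap at Gm35350 and overlapped at this most accessible region.

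Inside Nbas 2 of 7 regions were lower and 1 higher, with a median of -0.33. The higher one (13448851 to 13449350) had 4.41 and 6.15 CPM in Notch2_cKO, against 2.58 and 2.10 CPM in control (log2 1.12, SE 0.22). Between Nbas and Lratd1 10 of 25 regions were lower and none higher, with a median of -0.44. The last region of the block, at the end of Lratd1 (14147651 to 14148200), had 2.17 and 2.38 CPM in Notch2_cKO, against 4.76 and 6.11 CPM in control (log2 -1.28, SE 0.21).

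The second chromosome 12 block, from 25034051 to 26129300, begins in Kidins220, which encodes a scaffold of neurotrophin receptors, and then holds Id2 and 9 lncRNA genes. Id2 encodes a helix-loop-helix protein that binds other such factors and keeps them off DNA, and it is required for lymph node formation through lymphoid tissue inducer cells. The block had 45 regions, 21 lower, 1 higher and 23 not called, with a median of -0.57. The Id2 promoter region (25095901 to 25096500) had 76.3 and 90.8 CPM in Notch2_cKO, against 98.3 and 90.3 CPM in control (log2 -0.18, SE 0.09). The groups overlapped there, and the value was -0.43 with TMM factors. A region 2808 bp from Id2 (25098701 to 25099100) had 37.8 and 35.6 CPM in Notch2_cKO, against 45.2 and 46.5 CPM in control (log2 -0.32, SE 0.10), a call that was lost without either control or with a replicate block.

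Within 100000 bp beyond Id2 4 of 9 regions were lower, with a median of -0.32, and farther out 16 of 34 were lower and 1 higher, with a median of -0.70. The lowest (25159051 to 25159500), 63258 bp from Id2, had 0.398 and 0.305 CPM in Notch2_cKO, against 2.87 and 2.15 CPM in control (log2 -2.75, SE 0.34), on 12 and 4 counts against 67 and 53. The one higher region (25530351 to 25530950), 434558 bp from Id2, had 11.6 and 11.4 CPM in Notch2_cKO, against 7.14 and 5.60 CPM in control (log2 0.86, SE 0.16). Of the lncRNA genes, Gm36287 had 5 regions, 4 of them lower (median -0.72), and Gm36723 had 5, 3 of them lower (median -0.87). The region inside Kidins220 at the edge of the block was also lower (-1.24).

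The chromosome 17 block spans 2.483 Mb and had 47 regions, 18 lower, none higher and 29 not called, with a median of -0.52. Of these, 42 had a value below zero, and both Notch2_cKO libraries lay below both controls at 31. The median region of this block had 1.70 and 1.52 CPM in Notch2_cKO, against 2.98 and 2.38 CPM in control. Levels summed over its regions were 160.5 and 183.0 CPM in Notch2_cKO, against 291.4 and 270.5 CPM in control. Both sums in Notch2_cKO were lower than either sum in control.

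**Figure D3:**
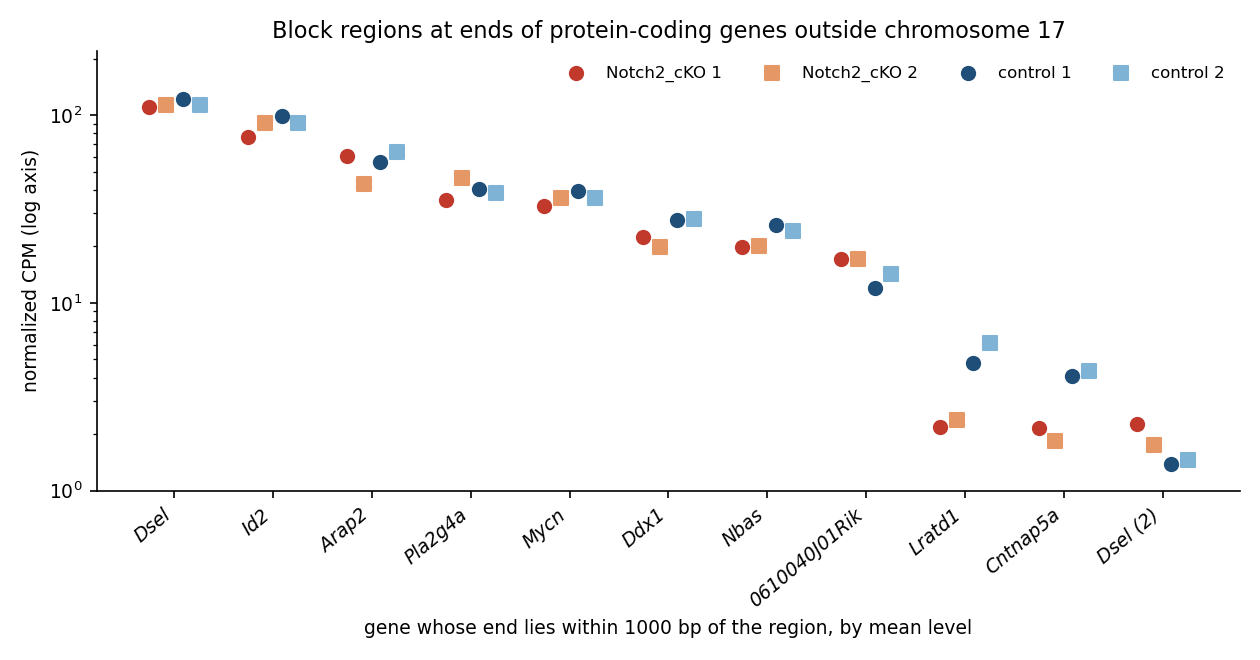
Normalized CPM (log axis) of 11 block regions at ends of protein-coding genes outside chromosome 17, ordered by mean level, with 1 point for each of the Notch2_cKO libraries 1 and 2 and the control libraries 1 and 2. At Lratd1 and Cntnap5a the Notch2_cKO points lie well below the controls, at Dsel, Id2, Arap2 and Pla2g4a the groups overlap, and at 0610040J01Rik and the second Dsel region the Notch2_cKO points are higher.

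Gene ends as a group had a smaller median change than the rest of the blocks, and most of them are in the plot of levels at gene ends. The median of all 12 was -0.19, with 4 called lower and none higher, against -0.58 over the other 385 block regions, with 163 lower and 9 higher. Gene ends outside the blocks had a median of 0.01 (13441 regions), with 4.50% called lower and 5.75% higher. This contrast depended on the scaling: with TMM factors the block gene ends had a median of -0.37, the other block regions -0.57 and gene ends outside -0.07. At least 2-fold lower were 3 of the 12 block gene ends and 93 of the other 385. The median level was 23.9 CPM at the block gene ends and 2.31 CPM at the other block regions. Block regions of the highest of 5 level classes had a median of -0.32, and -0.37 with TMM factors. The part of level in this contrast was not tested. Both Notch2_cKO libraries lay below both controls at 6 of the 12 and above both at 2, against 3042 and 3375 of the 13441 outside. Brinp3, Dthd1, Nwd2, G6pd2, B020011L13Rik and Kidins220 had no block region at an end.

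**Figure D4:**
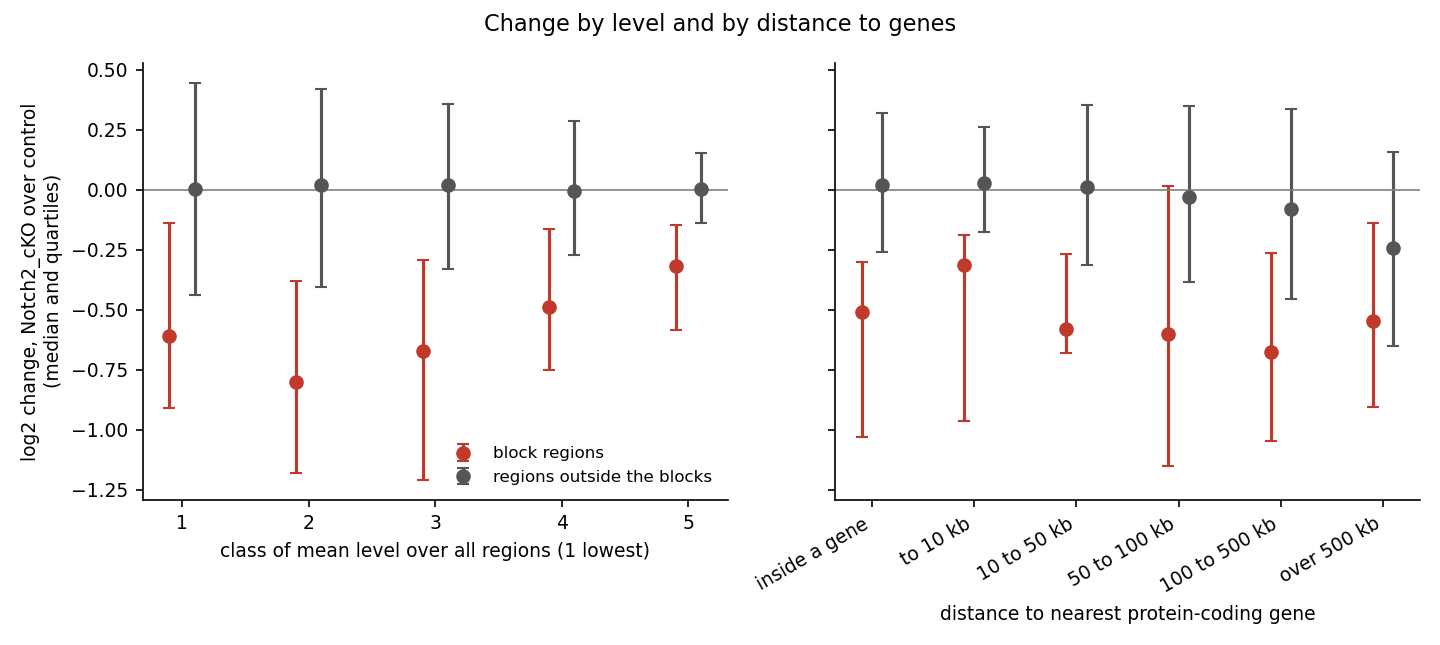
Median log2 change of Notch2_cKO over control, with quartiles as bars, for regions of the blocks and regions outside them, by 5 classes of mean level over all regions (left, class 1 lowest) and by distance to the nearest protein-coding gene (right). Block medians lie below those outside in every bin, from which nothing is read, since the blocks were picked on this contrast. The block medians nearest to 0 are at the highest level (-0.32) and up to 10 kb from a gene (-0.31).

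Block regions had lower levels and lay farther from genes than most, so their changes were also set out by level and by distance. All regions were split into 5 equal classes of mean level (bounds at 1.40, 2.53, 4.78 and 11.4 CPM). The block medians were -0.61, -0.80, -0.67, -0.49 and -0.32 from the lowest to the highest class, with 113, 95, 75, 55 and 59 regions. Outside the blocks the same classes had medians between -0.004 and 0.02, which the loess offsets hold near 0 at every level, and between -0.08 and 0.06 with TMM factors. By distance, block medians were -0.51 inside genes (99 regions), -0.31 up to 10 kb (18 regions) and -0.58, -0.60, -0.68 and -0.55 in the 4 bins beyond. Outside the blocks the median was 0.02 inside genes and -0.24 beyond 500 kb, where 20.5% of 2122 regions were called lower and 9.24% higher. The most remote regions outside the blocks were thus lower too. Their change was smaller than that of the blocks, from which nothing is read, since the blocks were picked on this contrast. In those remote regions the Notch2_cKO libraries differed from each other by a median of 0.12 and the controls by -0.07.

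At the borders the values just inside and just outside lay close together in some blocks. The first region inside each block had a median of -0.60 over the 7 blocks (from -1.45 to -0.16) and the last inside -0.35 (from -1.40 to 0.16). The last region before each block had a median of -0.15 (from -0.37 to 0.27) and the first after it -0.21 (from -0.46 to 0.15). Within 500000 bp on either side lay 275 regions, with a median of -0.17, of which 54 were called lower (19.6%) and 27 higher. The 35 regions before the Mycn block had a median of -0.47, with 16 lower, and the 38 after the Id2 block -0.36, with 13 lower. There the lower values went on beyond the border that was set.

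Because Cntnap5a and Brinp3 are long neuronal genes, 26 other long neuronal genes with regions inside them were set beside the blocks. Their 659 regions had a median of -0.12, with 99 called lower (15.0%) and 67 higher (10.2%). Medians of single genes ran from -0.62 in Epha7 to 0.54 in Csmd1, and were below zero in 20 of the 26. Epha7, an ephrin receptor next to the chromosome 4 block, had only 3 regions inside it, none of them called. Csmd1 had 30, of which 10 were called higher and 0 lower. Whole-gene medians were -0.58 in Kcnip4 and -0.49 in Nrxn3, against -0.58 in Cntnap5a and -0.44 in Brinp3 (-0.52 for its part in the block). Those of Cntnap5b (0.14) and Cntnap2 (0.05) were above zero. These 4 outside genes were picked after their values were seen.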

How the data were processed

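ATAC-seq was run on 2 Notch2_cKO and 2 control pools, which are separate samples per the labels, so the spread measured is that between pools. The submitters' processing notes name Bowtie2 2.4.5 and build mm10, beside Picard 2.27.5, SAMtools 1.14, deepTools, Trim Galore 0.6.7 and cutadapt. How peaks were called, and whether reads were shifted for the transposase, is not stated there. The deposited values are whole-number counts in 678058 overlapping windows. Per the labels they are loess normalized in csaw, but the library totals differ as raw counts do, so they were treated as counts.

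Windows up to 100 bp apart were merged, and best-window counts were given loess offsets (span 0.3) and fitted with edgeR 4.0.16 (R 4.3.3, limma 3.58.1), with Benjamini-Hochberg adjustment at 0.05 over all regions. The procedure was tested on simulated data. SE is derived from the quasi-likelihood test. With 2 libraries against 2, an exact two-sided permutation p for a single region cannot go below 0.333, and none is printed. Distances run from the midpoint of the best window to RefSeq genes of GRCm38.p6, whose table gives no exons here. Per-library log2 values used CPM + 0.1. Figures were drawn with matplotlib 3.10.9.

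The blocks and lists were chosen with earlier results of these data known. Named were, per block, the 2 regions of highest level, the lowest and highest change at 1 CPM or more, and up to 3 regions at gene ends; the lncRNAs named were picked after their values were seen. Some of the regions this rule picks are not reported here. After scaling to library totals only, replicates differed beyond counting noise (chi-square per region 2.77 within Notch2_cKO and 1.96 within control). Each counts as a sample because the labels give separate pools. Alternatives were other scalings, a level filter, window sums, DESeq2 1.42.0, limma, replicate blocks and leaving out each library.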

Additional observations from a re-analysis of the deposited data

How the results depend on the processing

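The number of block regions called lower (167) and higher (9) stayed within 1.5 times of these values under TMM factors, median centring, library totals, window sums and limma. In these fits 9.85% to 12.1% of all regions were called lower and 11.4% to 14.7% higher. DESeq2 called 90 lower and 4 higher, with 4.97% and 6.70% of all regions called, and gave no adjusted p for 6400 regions. With the lowest 25% of regions left out, 129 of 259 block regions were lower and 8 higher, with 12.4% and 13.9% of all 82590 regions called. Leaving out each library in turn gave 117 to 191 lower regions, 5 to 8 higher ones and medians from -0.63 to -0.49, while 7.30% to 13.3% of all regions were called lower and 8.04% to 14.2% higher; the fewest higher regions came without control 1 or control 2 (5 each), and a lone library is then assumed to vary like the other group. The median of all block regions was -0.41 with limma on log2 (CPM + 0.5), a scale that understates the change of low regions. Block medians lay between -0.71 and -0.37 in 13 alternatives, and none of the 176 called block regions turned its direction in the 2249 values these gave. Those regions had been selected by their call in the same counts, so nothing is read from their unchanged direction. With the replicate number as a replicate block, 159 were lower and 9 higher (median -0.55), with 9.94% and 11.1% of all regions called. The replicate deviations of the 2 groups had a correlation of -0.15 over regions. With 2 libraries per group, this does not show whether the replicate numbers pair the samples. The crossed pairing, added after seeing the data, gave 191 lower and 12 higher, with 15.3% and 16.4% of all regions called. For 33 single regions, 384 of 424 values under an alternative kept their call or moved by less than the replicate spread, 23 moved further and 17, from 4 regions, lost their call. Of 91 block medians under an alternative 24 moved by more than the within-group SD of the library medians of that block. This SD is a spread of medians and does not give the replicate spread of single regions. Of 104 counts inside genes 14 moved by more than 1.5 times. Low counts limit the weakest regions: the median block region had 25 counts in Notch2_cKO 2.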
